A study of Mus musculus with 12 samples.

Results

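The smooth muscle contractile genes described here are Acta2, Actg2, Myh11, Myl9, Cnn1, Cald1, Tagln, Tpm1, Tpm2 and Des. They are 10 of the 19937 genes named on the arrays, and each was read by 1 probe set. They were chosen by name, with earlier results of these arrays known. Of the 10 genes, 9 lay above the array median on at least 3 of the 12 arrays and were tested. Actg2 lay above it on 0 arrays and was not tested.

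These genes encode the parts of a contractile apparatus. In smooth muscle, actin filaments slide against myosin, phosphorylation of the myosin light chain switches the motor on, and tropomyosin, caldesmon and calponin lie along the actin filament and regulate it. Many of the genes are known targets of serum response factor, which binds a DNA element called the CArG box together with coactivators of the myocardin family, and several respond to TGF-beta. In bone, such genes mark vascular smooth muscle, pericytes and contractile stromal cells, and nonmuscle cells also use some of them (Myl9, Cald1, Tpm1) in stress fibres.

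Expression was measured on arrays in 4 groups of 3 biological replicates, all from long bones of mice that were female and of the NOD SCID strain, which lacks functional T and B lymphocytes. Tumor-bearing mice were injected in the heart with 200000 MDA-MB-231 scp1833 cells, a human breast cancer line, and the tumors then grew for about 2 weeks, while tumor-free mice served as controls. What tumor-free mice received in place of the cells, the age of the mice and whether an array pools several mice are unstated in the labels. Whether osteoblast and endothelial arrays came from the same mice is not given either, and the main fit took all arrays as independent. Both cell types were sorted as negative for GFP, TR119 and CD45. Osteoblasts (bone-forming cells) were the SCA1-negative, CD31-negative, CD51-positive fraction, and endothelial cells (which line blood vessels) were positive for SCA1 and CD31. CD51 is an integrin chain that other stromal cells can carry, so the osteoblast gate is defined by surface proteins and not by a bone gene.

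The endothelial and osteoblast marker lists separated the sorted fractions, while markers of other cells were also present. The mean log2 level of 6 endothelial markers lay at 10.1 to 10.3 on endothelial arrays and at 4.84 to 6.14 on osteoblast arrays. The mean of 5 osteoblast markers lay at 9.05 to 10.2 on osteoblast arrays and at 5.68 to 6.27 on endothelial arrays. Ptprc, which encodes the gated-out CD45, stood at 8.46 in tumor-free osteoblast replicate 2 and between 4.70 and 7.03 on the other osteoblast arrays. Adipoq, a marker of reticular and fat-lineage stroma, stood at 6.74 to 9.41 on endothelial arrays. The other marker lists are given with the last results. Array medians, the level against which a gene counts as dim here, lay between 5.21 and 5.41. Tumor-free osteoblasts were the most variable group, with correlations between replicates of 0.867 to 0.908 against 0.946 to 0.969 elsewhere. All values below are deposited log2 expression levels or differences between them, and levels of different genes are not set against each other because each probe set has its own response.

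Promoter sequences are shown first because many of these genes are known targets of serum response factor, which binds the CArG box. RefSeq promoters (GRCm38.p6, 250 bases before to 50 after the start of transcription) were found for 7 of the 10 genes, Cald1 with 2 of them. The CArG box was searched as CC, then 6 bases that are each A or T, then GG, which reads as the same pattern on both strands. Of these 7 genes, 1 held such a box (Myl9), and 2 (Acta2 and Myl9) held a near match in which 1 of the 6 middle bases is G or C. Among all 32851 promoters of that length, 1.63% held a CArG box and 8.5% a near match. Acta2 is printed for its 2 near matches, Myl9 for its box and near match, and Cnn1 as a gene with neither in this window. Capitals mark the box and the near matches, each sequence runs 5′ to 3′ on the gene's strand, and the spans are chr19:34255324-34255623 on the minus strand for Acta2, chr2:156775214-156775513 on the plus strand for Myl9 and chr9:22099003-22099302 on the plus strand for Cnn1.
Acta2: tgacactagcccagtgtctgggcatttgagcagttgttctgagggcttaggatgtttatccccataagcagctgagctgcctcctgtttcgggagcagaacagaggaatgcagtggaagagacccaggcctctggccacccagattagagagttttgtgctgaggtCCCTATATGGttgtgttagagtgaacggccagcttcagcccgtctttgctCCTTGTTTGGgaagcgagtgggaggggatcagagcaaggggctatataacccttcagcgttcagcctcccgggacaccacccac
Myl9: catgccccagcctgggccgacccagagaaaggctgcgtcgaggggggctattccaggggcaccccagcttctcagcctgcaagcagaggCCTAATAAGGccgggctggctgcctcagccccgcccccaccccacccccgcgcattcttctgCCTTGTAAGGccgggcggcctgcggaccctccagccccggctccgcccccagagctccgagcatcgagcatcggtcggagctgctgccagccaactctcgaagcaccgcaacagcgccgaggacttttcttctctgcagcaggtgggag
Cnn1: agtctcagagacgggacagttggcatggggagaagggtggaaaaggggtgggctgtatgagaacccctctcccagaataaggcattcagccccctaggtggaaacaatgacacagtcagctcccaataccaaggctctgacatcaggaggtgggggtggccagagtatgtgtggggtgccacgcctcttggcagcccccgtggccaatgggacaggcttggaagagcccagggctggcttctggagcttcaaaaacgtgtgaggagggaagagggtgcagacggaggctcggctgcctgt

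In Acta2 the near matches CCCTATATGG and CCTTGTTTGG lay 84 to 75 and 34 to 25 bases before the start. In Myl9 the box CCTAATAAGG lay 161 to 152 bases before the start and the near match CCTTGTAAGG 99 to 90 bases before it. These distances are counted from the start that sets each window. The annotated genes begin elsewhere in the same windows, at base 34255585 for Acta2 and 156775408 for Myl9, so the distances depend on the start taken. Counted from those bases, the Acta2 near matches lie after the start, inside the gene. The Myl9 box and near match remain before it. The promoters of Cald1, Tpm1, Tpm2 and Des held neither. CATTCC, the core of the MCAT element bound by TEAD factors, was searched on both strands. Its final CC can be the start of a CArG box, and it overlapped no marked match here. It was found in Acta2, Cald1 and Tpm1, against 14.7% of all promoters. These matches are letters in a short window and were not tested for binding.

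Acta2, which encodes the alpha-actin of smooth muscle, was higher in osteoblasts of tumor-bearing mice. Its log2 level was 6.51, 6.97 and 5.96 in the 3 tumor-free osteoblast arrays and 9.59, 9.77 and 8.35 in the 3 from tumor-bearing mice. The groups did not overlap, and the lowest tumor-bearing array stood above the highest tumor-free array. The means were 6.48 ± 0.51 and 9.24 ± 0.77 (SD, n = 3 each), a 6.75-fold rise (log2 difference 2.76 ± 0.47 SE, adjusted p = 0.0118 by limma). In endothelial cells Acta2 stood at 8.56, 7.18 and 7.08 in tumor-free mice and at 8.86, 8.92 and 8.21 in tumor-bearing mice. Tumor-free endothelial replicate 1 lay inside the tumor-bearing range, so these groups overlapped, and the difference of 1.06 ± 0.47 (SE) did not pass (adjusted p = 0.70). In order of mean level the groups were osteoblasts of tumor-bearing mice, endothelial cells of tumor-bearing mice, endothelial cells of tumor-free mice and osteoblasts of tumor-free mice, and no pair of neighbours in that order passed the test. The osteoblast difference was 2.49 or more under all 23 alternatives, with adjusted p between 0.00442 and 0.104. It no longer passed without tumor-bearing osteoblast replicate 2 (2.49, adjusted p = 0.0569) or when only the osteoblast arrays were fitted (2.76, adjusted p = 0.104). Actg2, the gamma-actin of visceral smooth muscle, ranged from 4.57 to 5.13 over all 12 arrays, below every array's median.

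**Figure D1:**
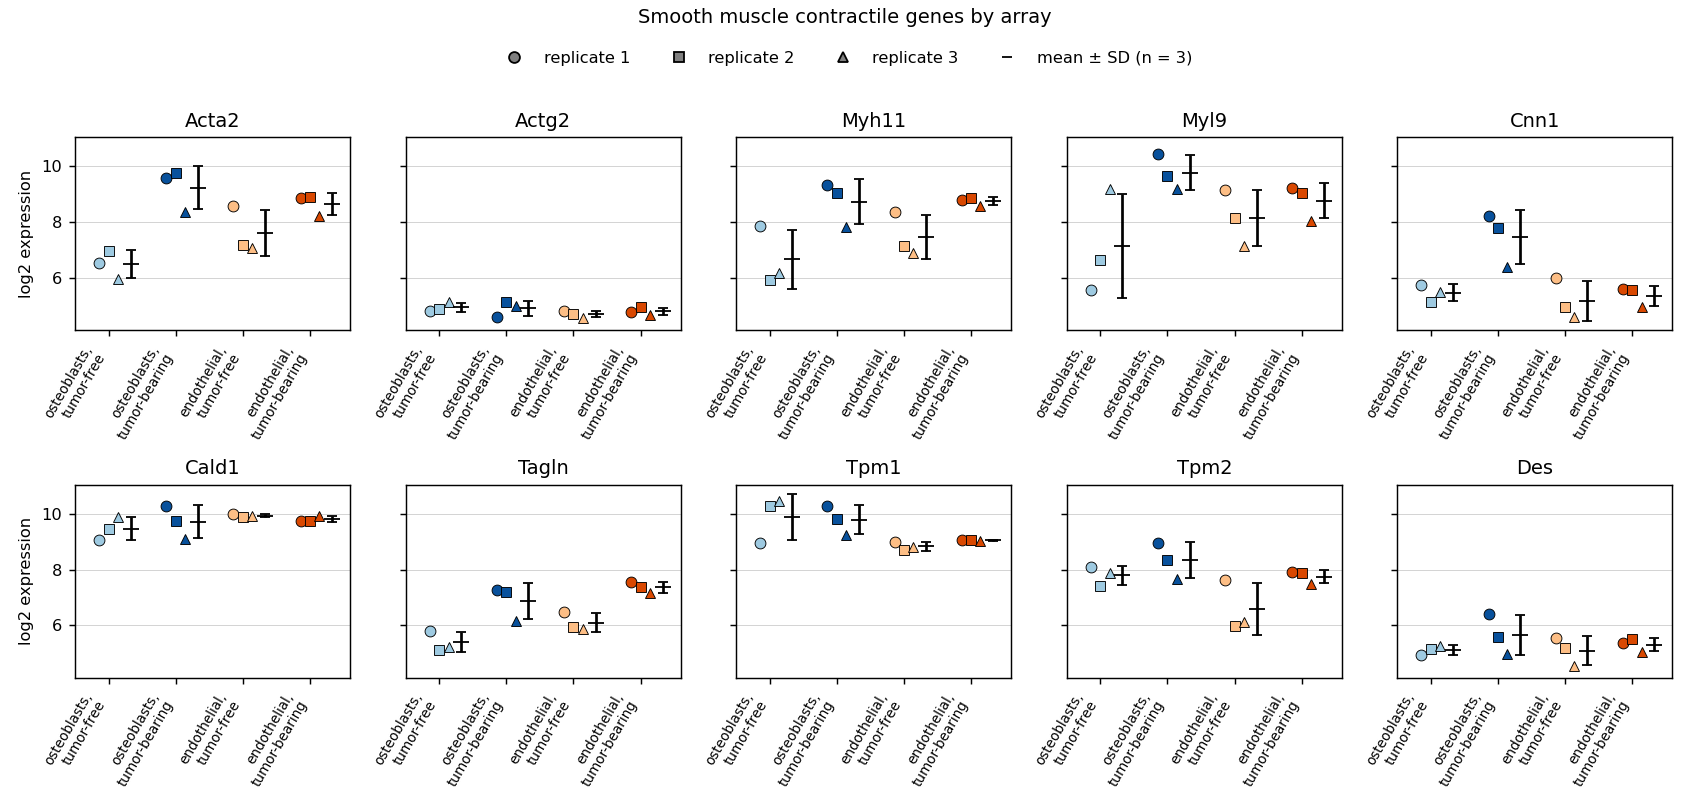
Log2 expression of each of the 10 smooth muscle contractile genes on the 12 arrays, 1 panel per gene, with circles, squares and triangles for replicates 1, 2 and 3 and black bars for the mean ± SD of 3 arrays in each group. Acta2 lies between 5.96 and 6.97 in tumor-free osteoblasts and between 8.35 and 9.77 in osteoblasts of tumor-bearing mice, and Actg2 stays at or under 5.13 throughout.

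The myosin genes had large differences in osteoblasts that did not pass the test. Myh11, the smooth muscle myosin heavy chain, stood at 7.87, 5.91 and 6.18 in tumor-free osteoblasts and at 9.34, 9.04 and 7.81 in osteoblasts of tumor-bearing mice. Tumor-free replicate 1 lay just above the lowest tumor-bearing array. The difference was 2.07 ± 0.56 (SE; adjusted p = 0.0598, between 0.00261 and 0.353 over the alternatives). It passed without tumor-free osteoblast replicate 1 (2.68, adjusted p = 0.0059) or tumor-bearing osteoblast replicate 3 (2.54, 0.0477), with array quality weights (2.49, 0.0308) and with a filter at the 70th percentile (2.07, 0.0499). It was smaller without tumor-free osteoblast replicate 2 (1.70, adjusted p = 0.11), and with replicate 1 as the only tumor-free array of each cell type it was 0.86 (adjusted p = 0.353). In endothelial cells Myh11 stood at 8.36, 7.14 and 6.89 against 8.80, 8.85 and 8.58 in tumor-bearing mice. These groups did not overlap, and the difference of 1.28 ± 0.56 (SE) did not pass (adjusted p = 0.697).

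Myl9, a regulatory light chain of smooth muscle and nonmuscle myosin, was the most variable of the 10 genes in tumor-free osteoblasts. Its levels there were 5.56, 6.65 and 9.20, and in osteoblasts of tumor-bearing mice they were 10.44, 9.67 and 9.19. Tumor-free replicate 3 was as high as tumor-bearing replicate 3, while replicate 1 was far below both. The difference of 2.63 ± 0.81 (SE) did not pass (adjusted p = 0.0871, between 0.00916 and 0.284 over the alternatives), and it was 3.66 without tumor-free osteoblast replicate 3 (adjusted p = 0.0164) but 1.84 without replicate 1 (adjusted p = 0.135). Endothelial levels were 9.16, 8.13 and 7.15 in tumor-free and 9.20, 9.04 and 8.05 in tumor-bearing mice, overlapping groups with a difference of 0.62 ± 0.81 (SE; adjusted p = 0.999).

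Of the proteins that bind and regulate the actin filament, the transcripts of calponin (Cnn1) and transgelin (Tagln) rose in osteoblasts of tumor-bearing mice. Cnn1, which encodes calponin 1, an inhibitor of the actin-activated myosin motor, stood at 5.73, 5.14 and 5.50 in tumor-free osteoblasts and at 8.23, 7.79 and 6.37 in those of tumor-bearing mice. The groups did not overlap, although tumor-bearing replicate 3 was much closer to the tumor-free arrays than the other two. The rise was 4.01-fold (log2 difference 2.00 ± 0.47 SE, adjusted p = 0.0395). In endothelial cells Cnn1 stood near the array medians, at 5.98, 4.94 and 4.57 in tumor-free and 5.58, 5.54 and 4.94 in tumor-bearing mice. That difference was 0.20 ± 0.47 (SE; adjusted p = 0.999).

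Cnn1 was near its threshold, and over the 23 alternatives its adjusted p in osteoblasts ran from 0.0143 to 0.186. It did not pass without osteoblast replicate 1 or 2 of tumor-bearing mice (adjusted p = 0.12 and 0.14) or replicate 2 or 3 of tumor-free mice (0.067 and 0.0797). Leaving out any 1 endothelial array of tumor-bearing mice (0.0535 to 0.0616) or tumor-free endothelial replicate 2 (0.0588) also ended the call. With the osteoblast arrays alone in the fit adjusted p was 0.186, and with replicate 1 as the only tumor-free array the difference was 1.73 (adjusted p = 0.147).

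Tagln, which encodes transgelin (SM22-alpha), an actin cross-linking protein and an early smooth muscle marker, had similar differences in both cell types. Its osteoblast levels were 5.79, 5.12 and 5.23 in tumor-free and 7.28, 7.20 and 6.14 in tumor-bearing mice. Its endothelial levels were 6.47, 5.95 and 5.85 in tumor-free and 7.56, 7.36 and 7.15 in tumor-bearing mice. In neither cell type did the groups overlap. The osteoblast rise was 2.81-fold (1.49 ± 0.31 SE, adjusted p = 0.0258, between 0.0084 and 0.186 over the alternatives). It no longer passed without tumor-bearing osteoblast replicate 1 (1.29, adjusted p = 0.0785), tumor-bearing replicate 2 (1.33, 0.11) or tumor-free replicate 3 (1.42, 0.0653), or with osteoblast arrays alone in the fit (1.49, 0.186). With replicate 1 as the only tumor-free array the difference was 1.08 (adjusted p = 0.176). The endothelial difference of 1.27 ± 0.31 (SE) did not pass (adjusted p = 0.303, between 0.0103 and 1 over the alternatives).

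Cald1, which encodes caldesmon, ranged from 9.07 to 10.29 over the osteoblast arrays and from 9.73 to 9.99 over the endothelial arrays. Its differences were 0.24 ± 0.28 in osteoblasts and -0.12 ± 0.28 (SE) in endothelial cells (adjusted p = 0.616 and 0.999). The 95% intervals, unadjusted, ran from -0.37 to 0.85 and from -0.74 to 0.49, so a rise the size of that of Cnn1 lay outside both.

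Of the tropomyosins, which wind along the actin filament and gate myosin binding, neither passed in a tumor comparison. Tpm1 stood at 8.94, 10.27 and 10.47 in tumor-free osteoblasts and at 10.29, 9.80 and 9.25 in osteoblasts of tumor-bearing mice, overlapping groups with a difference of -0.11 ± 0.36 (SE; adjusted p = 0.876). Its endothelial levels were 8.997, 8.69 and 8.80 in tumor-free and 9.05, 9.06 and 9.04 in tumor-bearing mice. The endothelial groups did not overlap, but the difference was small at 0.22 ± 0.36 (SE; adjusted p = 0.999). Tpm2 stood at 8.07, 7.42 and 7.87 in tumor-free and 8.97, 8.35 and 7.67 in tumor-bearing osteoblasts, a difference of 0.54 ± 0.44 (SE; adjusted p = 0.46). In endothelial cells Tpm2 stood at 7.64, 5.96 and 6.13 against 7.91, 7.86 and 7.47, where tumor-free replicate 1 alone reached the tumor-bearing range. That difference was 1.17 ± 0.44 (SE; adjusted p = 0.601, between 0.0382 and 1 over the alternatives), and with tumor-free replicate 1 of both cell types left out it was 1.70 (adjusted p = 0.0486). With tumor-free replicates 2 and 3 left out instead it was 0.11 (adjusted p = 1).

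Des, which encodes the muscle intermediate filament desmin, stayed close to the array medians. It ranged from 4.92 to 5.25 in tumor-free osteoblasts and from 4.98 to 6.41 in those of tumor-bearing mice, and from 4.53 to 5.54 in tumor-free and 5.05 to 5.50 in tumor-bearing endothelial cells. The differences of 0.54 ± 0.34 and 0.21 ± 0.34 (SE) did not pass (adjusted p = 0.348 and 0.999). It lay above the array median on 5 of 12 arrays.

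Across the osteoblast comparison, 3 of the 9 genes tested rose (Acta2, Cnn1 and Tagln) and 0 fell. Of all 12430 genes 4.59% were called in either direction, 4.01% higher and 0.571% lower. The contractile genes were chosen with earlier results of these arrays known, so counts of them are descriptions. Differences were positive for 8 of the 9 genes, with a median of 1.49 against -0.00 over all genes tested. Tumor-bearing arrays all lay above tumor-free arrays for 3 of the 9 genes, as they did for 12.3% of all genes. An unadjusted p under 0.05 by limma was found for 5 of the 9 genes and 24.4% of all genes. In a sorted fraction measured in bulk, a change in the number of cells of a type and a change in RNA per cell cannot be told apart. Fitting only the 6 osteoblast arrays called 0 of the 9 genes and 0 of all genes, while 5 of the 9 genes and 1820 of all genes had an unadjusted p under 0.05 by limma. The main fit shares 1 spread per gene over all 4 groups. The median SD of genes tested was 0.328 in tumor-free and 0.219 in tumor-bearing osteoblasts. In endothelial cells it was 0.173 and 0.189. SEs of osteoblast differences in the main fit thus also rest on endothelial arrays, whose median SD was lower.

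In the endothelial comparison 0 of the 9 genes passed by limma, against 0.0241% of all genes. An unadjusted p under 0.05 was found for 4 of the 9 genes (Acta2, Myh11, Tagln and Tpm2) and for 6.93% of all genes. Differences were positive for 8 of 9, with a median of 0.62 against -0.02 over all genes. Tumor-bearing arrays all lay above tumor-free arrays for 3 genes (Myh11, Tagln and Tpm1), as for 7.84% of all genes. With arrays weighted by quality Myh11 (1.51, adjusted p = 0.0426), Tagln (1.44, 0.0103) and Tpm2 (1.44, 0.0382) passed, beside 449 genes in all. Tumor-free endothelial replicate 1 was the highest array of its group for all 10 contractile genes, with a mean over them of 7.55 against 6.78 and 6.55 in replicates 2 and 3 and 7.31 to 7.68 in tumor-bearing mice.

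**Figure D2:**
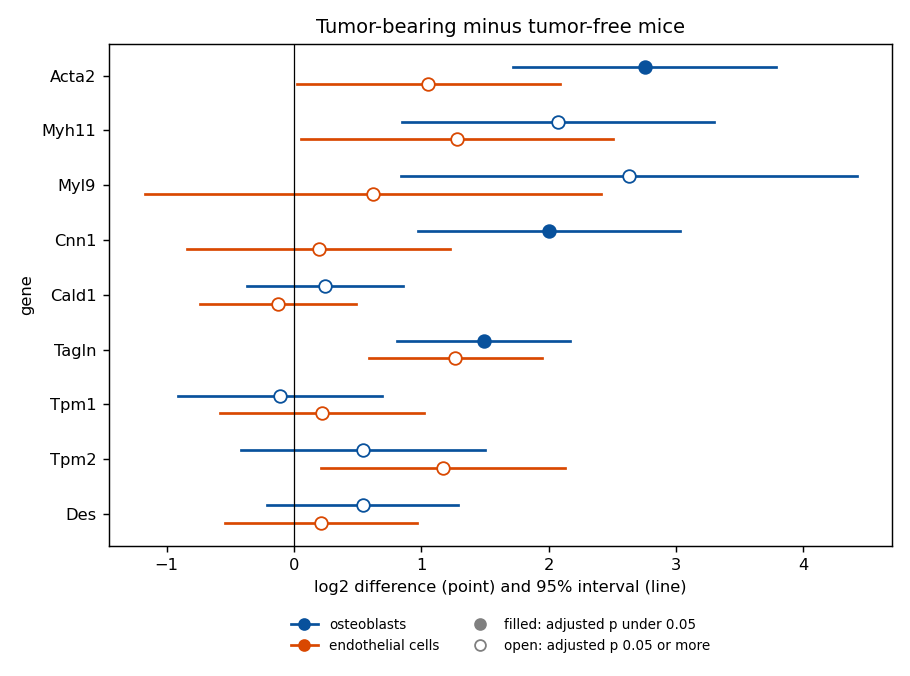
Log2 difference, tumor-bearing minus tumor-free, for the 9 tested contractile genes in osteoblasts and in endothelial cells, with 95% intervals from limma that are not adjusted for multiple tests. In osteoblasts Acta2 (2.76), Cnn1 (2.00) and Tagln (1.49) pass the adjusted threshold, and in endothelial cells no gene does.

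Whether the tumor difference was larger in osteoblasts than in endothelial cells was tested as the difference of the differences. By limma 0 of the 9 genes passed, against 0.209% of all genes, while 2 had an unadjusted p under 0.05, as did 16.0% of all genes. These were Cnn1 (1.81 ± 0.66 SE, adjusted p = 0.235) and Acta2 (1.70 ± 0.66 SE, adjusted p = 0.251). For Tagln the value was 0.22 ± 0.44 (SE; unadjusted 95% interval -0.74 to 1.19, adjusted p = 0.816). The contractile genes are therefore not shown to respond differently in the 2 cell types. This comparison shares its arrays with both tumor comparisons above.

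Between the cell types of tumor-free mice, Tpm1 was 2.09-fold higher in osteoblasts (1.07 ± 0.36 SE, adjusted p = 0.0462), the 1 of 9 genes past the threshold, against 31.0% of all genes in either direction and 12.7% higher in osteoblasts. The cell type groups overlapped for Tpm1, since osteoblast replicate 1 (8.94) lay within the endothelial range. The call was lost in 9 of the 12 fits that left out 1 array, those without osteoblast replicate 2 or 3 of tumor-free mice (0.88 and 0.78, adjusted p = 0.116 and 0.138), without any tumor-free endothelial array (0.0803 to 0.122), without any tumor-bearing endothelial array (0.0612 to 0.0643) and without tumor-bearing osteoblast replicate 2 (0.0631). Without tumor-free osteoblast replicate 1 the difference was 1.54 (adjusted p = 0.0016), and with replicate 1 as the tumor-free array of each cell type it was -0.05. With each array centred on its median the difference was 0.91 (adjusted p = 0.089), and with only the tumor-free arrays fitted it was 1.07 (adjusted p = 0.117), neither past the threshold. Tpm2 was short of the threshold at 1.21 ± 0.44 (SE; adjusted p = 0.0553, between 0.00767 and 0.615 over the alternatives). Acta2 and Tagln pointed the other way, at -1.12 ± 0.47 and -0.71 ± 0.31 (SE; adjusted p = 0.0878 and 0.0999). Their adjusted p ran from 0.0334 to 0.331 and from 0.0409 to 0.409 over the alternatives. For both, all 3 tumor-free osteoblast arrays lay below all 3 tumor-free endothelial arrays, as for 23.1% of all genes.

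In tumor-bearing mice Cnn1 was 4.30-fold higher in osteoblasts than in endothelial cells (2.10 ± 0.47 SE, adjusted p = 0.0105), the 1 of 9 genes that passed, against 14.9% of all genes in either direction and 6.79% higher in osteoblasts. All osteoblast arrays lay above all endothelial arrays for Cnn1 and Tpm1, as for 16.3% of all genes. Cnn1 did not pass without tumor-bearing endothelial replicate 3 (adjusted p = 0.0503) and passed in the other 11 fits that left out 1 array. Tpm1 differed by 0.74 ± 0.36 (SE; adjusted p = 0.239), passing without tumor-free osteoblast replicate 1 (adjusted p = 0.0457) and with array weights (0.0138), and reaching 0.517 at most over the alternatives. Acta2, lower in tumor-free osteoblasts than in endothelial cells without passing, stood at 0.58 ± 0.47 (SE) above endothelial cells in tumor-bearing mice and did not pass there either (adjusted p = 0.527). Myh11 was level between the cell types, at -0.01 ± 0.56 (SE; unadjusted 95% interval -1.24 to 1.21).

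**Figure D3:**
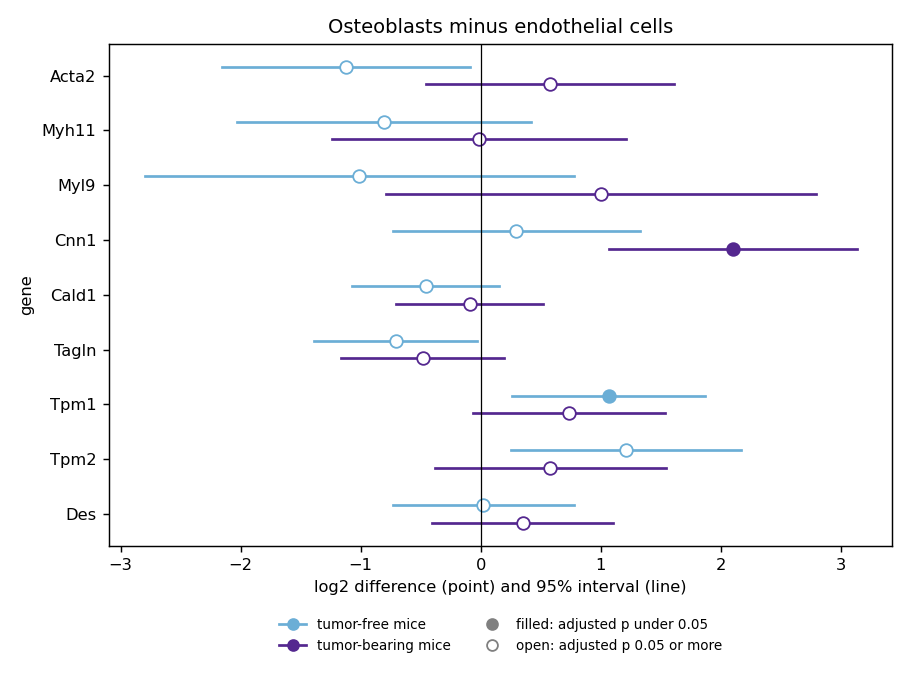
Log2 difference, osteoblasts minus endothelial cells, for the 9 tested contractile genes in tumor-free and in tumor-bearing mice, with unadjusted 95% intervals from limma and filled points for genes past the adjusted threshold. Tpm1 (1.07) passes in tumor-free mice and Cnn1 (2.10) in tumor-bearing mice.

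Within groups, many but not all of the contractile genes were high or low on the same arrays. In osteoblasts of tumor-bearing mice, replicate 3 was the lowest array for 9 of the 10 genes, all but Actg2, and replicate 1 was the highest for 8. In endothelial cells of tumor-bearing mice replicate 3 was the lowest for 9 of 10, all but Cald1. Tumor-free osteoblasts split: replicate 1 was the highest for Myh11, Cnn1, Tagln and Tpm2, while it was the lowest for Myl9, Cald1, Tpm1, Des and Actg2. Over 12 arrays, after each group's mean was taken off, deviations correlated at 0.938 between Cnn1 and Tagln, 0.914 between Cnn1 and Tpm2 and 0.913 between Myh11 and Tagln. Cald1 and Tpm1 correlated at 0.862, but Myh11 and Myl9 at 0.01 and Myh11 and Tpm1 at -0.22. Of the 36 pairs of the 9 tested genes 35 were positive, with a median of 0.633, against a median of 0.0049 and 50.4% positive over all pairs of genes tested. These points share arrays, and so RNA quality, amplification and cell makeup, and the correlations are descriptions only.

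**Figure D4:**
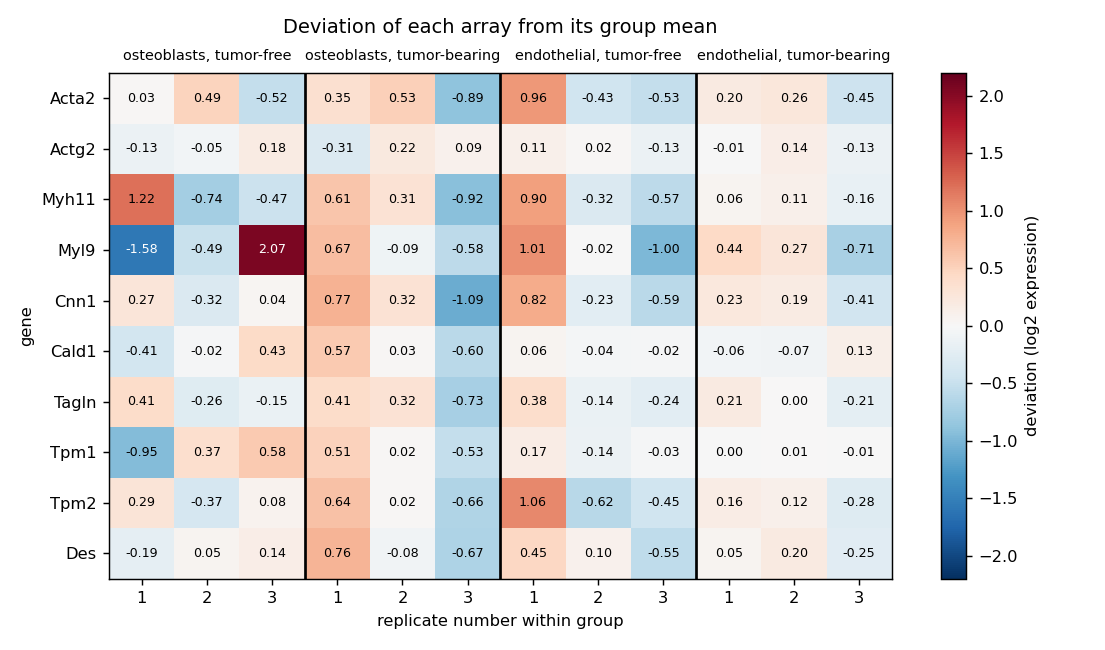
Each contractile gene's deviation from its group mean (log2) on each of the 12 arrays, genes in rows and arrays in columns, red above and blue below the group mean. Tumor-bearing osteoblast replicate 3 is below its group mean for most genes and tumor-free endothelial replicate 1 is above it, while in tumor-free osteoblasts replicate 1 is high for Myh11 and low for Myl9.

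Over all 12 arrays the level of Acta2 was followed most closely among the contractile genes by Tagln (r = 0.879) and Myh11 (0.873), then by Myl9 (0.694), Cnn1 (0.68), Des (0.647), Tpm2 (0.497), Cald1 (0.315) and Tpm1 (-0.01). Tagln ranked 22 and Myh11 29 among all other genes tested. Outside the 10 genes, and passing over 1 gene known only by a clone number, the 8 genes most like Acta2 were Nt5dc3 (0.951), Tnfrsf12a (0.934), Gna13 (0.927), Gadd45b (0.923), Azin1 (0.917), Stat3 (0.916), Slc2a1 (0.914) and Cxcl1 (0.91). Their osteoblast differences ranged from 0.80 (Stat3) to 2.13 (Slc2a1), and each passed the threshold. The 12 arrays fall into 4 groups that differ in level, so the correlations mostly order genes by their group means. The 8 genes were picked for likeness to Acta2 on these same arrays, so their passing is not a separate result.

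Other genes of the contractile pathway were read from lists. Their counts are set against all genes tested, of which 4.01% were called higher and 0.571% lower in osteoblasts (4.59% in either direction). In endothelial cells 0.0241% of all genes were called. Of 18 tested smooth muscle genes outside the 10, 3 rose and 0 fell in osteoblasts of tumor-bearing mice, with a median difference of 0.41. Itga8, the alpha-8 integrin chain of contractile cells, stood at 4.75, 4.88 and 5.01 in tumor-free and 7.18, 6.76 and 5.64 in tumor-bearing osteoblasts, a difference of 1.65 ± 0.33 (SE; adjusted p = 0.0233). Its order of arrays within the tumor-bearing group was that of Cnn1, with replicate 3 lowest. Pln (phospholamban, which restrains the calcium pump) rose by 1.46 ± 0.31 (SE; adjusted p = 0.0262), and Smtn (smoothelin) by 0.73 ± 0.15 (SE; 0.0273). In endothelial cells 0 of the 18 passed, with a median of 0.19, and Itga8 differed by -0.80 ± 0.33 (SE; adjusted p = 0.666).

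Serum response factor, the myocardin family and their partners did not pass in either cell type. By limma 0 of 15 tested genes were called, against 4.59% of all genes in osteoblasts and 0.0241% in endothelial cells. Srf stood at 6.29 ± 0.18 in tumor-free and 6.54 ± 0.42 in tumor-bearing osteoblasts (SD, n = 3 each; difference 0.25 ± 0.20 SE, adjusted p = 0.465). The smallest p-values in osteoblasts belonged to Mef2a (0.98 ± 0.29 SE, adjusted p = 0.0751) and Mef2c (0.46 ± 0.16 SE, 0.109), transcription factors of muscle genes. Myocd, the gene of myocardin, had group means of 4.26 to 4.67 and was too dim to be tested. By the same search the Srf promoter held 2 CArG boxes.

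Among 16 genes that set the phosphorylation of the myosin light chain, 1 rose in osteoblasts, Prkg1, the cGMP-dependent kinase that relaxes smooth muscle (1.50 ± 0.35 SE, adjusted p = 0.0399), and 15 of the 16 differences were positive with a median of 0.26. Of 19 nonmuscle actin cytoskeleton genes 2 rose. Vcl (vinculin, of focal adhesions) stood at 7.43, 7.58 and 6.96 in tumor-free and 8.82, 8.50 and 8.94 in tumor-bearing osteoblasts, with no overlap (1.43 ± 0.21 SE, adjusted p = 0.00785). Cnn3, the acidic calponin of nonmuscle cells, differed by 1.69 ± 0.29 (SE; adjusted p = 0.0128). Of 11 TGF-beta ligands and targets 3 rose, with a median of 1.11: Tgfb2 (2.37 ± 0.44 SE, adjusted p = 0.0173), the matricellular gene Ccn2 (1.55 ± 0.27 SE, 0.0132) and Thbs1 (1.11 ± 0.25 SE, 0.0343), whose protein can activate latent TGF-beta. Tgfb2 stood at 8.03, 6.13 and 6.31 in tumor-free and 8.88, 9.70 and 8.99 in tumor-bearing osteoblasts. In endothelial cells 0 genes of these 5 lists passed by limma, against 0.0241% of all genes. These lists were drawn up with earlier results of the same arrays known, so their counts are descriptions.

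**Figure D5:**
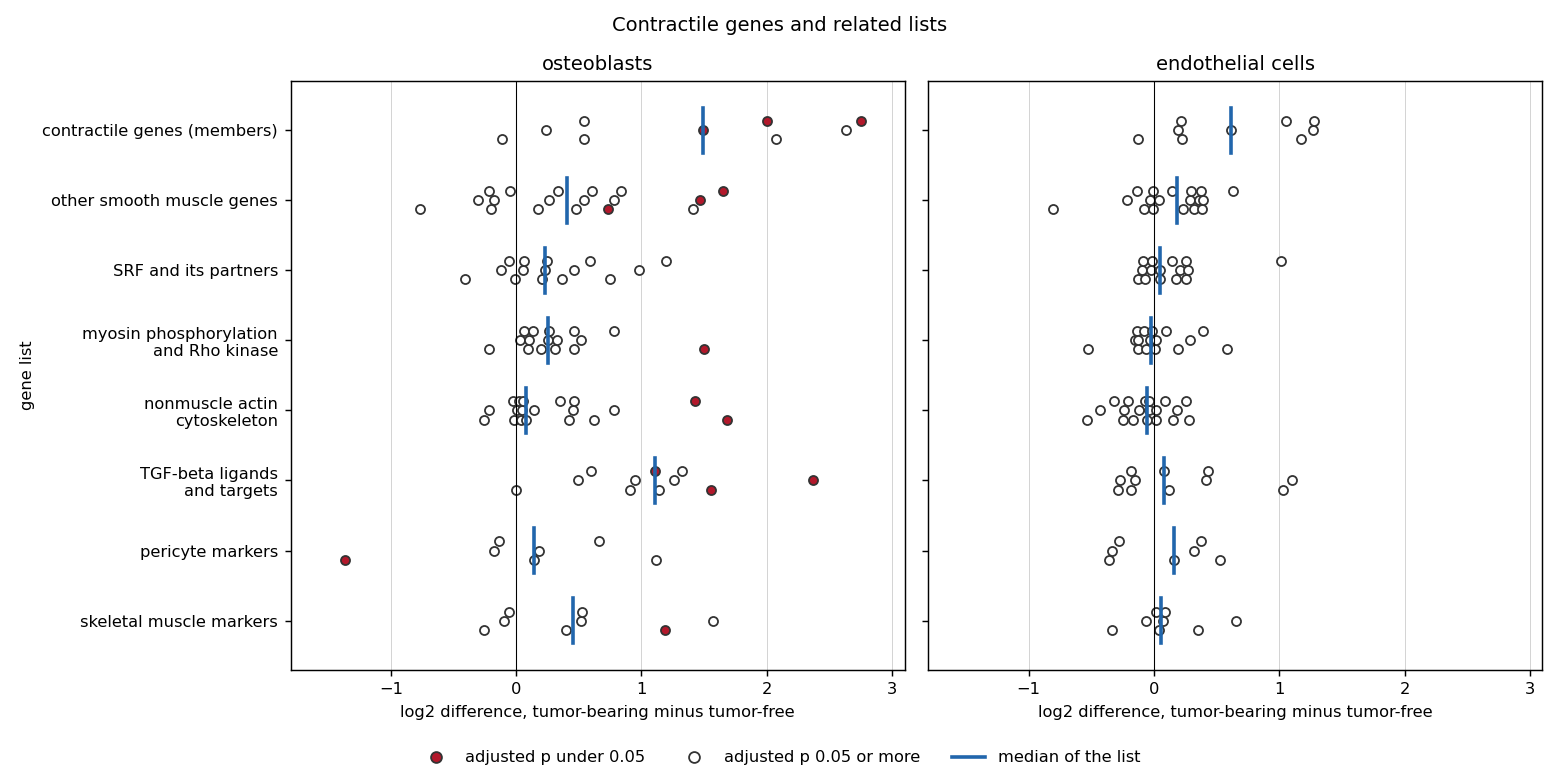
Log2 difference, tumor-bearing minus tumor-free, of each tested contractile gene and of each tested gene in 5 related lists and 2 marker lists, for osteoblasts and endothelial cells, with genes past the threshold filled and a blue line at each list's median. In osteoblasts 3 of 9 contractile genes, 3 of 18 other smooth muscle genes and 0 of 15 SRF partners are called. Also called there are 1 of 16 myosin phosphorylation genes, 2 of 19 nonmuscle actin genes and 3 of 11 TGF-beta genes. Of all genes tested, 4.59% are called in osteoblasts and 0.0241% in endothelial cells.

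Markers of other cell types were read on the same arrays, and their part in the differences above was not tested. Of all genes tested, 4.01% were called higher and 0.571% lower in osteoblasts, and 0.0241% were called in endothelial cells. Of 7 pericyte markers outside the 10 genes, 0 rose and 1 fell in osteoblasts of tumor-bearing mice, Kcnj8, a potassium channel subunit (-1.37 ± 0.27 SE, adjusted p = 0.0208). Their mean level lay at 6.78 to 7.41 in tumor-free and 6.80 to 7.61 in tumor-bearing osteoblasts and at 7.77 to 7.99 on endothelial arrays, with 6 or 7 of the 7 above the median on every array. The list was split between the cell types. Abcc9, Kcnj8, Mcam and Rgs5 were higher on every endothelial array than on any osteoblast array. Cspg4 was lower on every endothelial array (5.875 to 6.31 against 6.33 to 8.35). Pdgfrb (5.73 to 6.70 on endothelial and 6.04 to 9.38 on osteoblast arrays) and Notch3 overlapped. Among tumor-bearing osteoblasts the mean of the 7 pericyte markers was 7.61, 7.19 and 6.80 in replicates 1, 2 and 3, the same order as for Cnn1 and Tagln. Of the 7, Cspg4, Mcam and Kcnj8 did not follow that order. The means of the fibroblast markers (8.75, 8.25 and 8.10) and of the reticular stroma markers (10.6, 9.73 and 9.08) had that order too. Of 8 tested skeletal muscle markers 1 rose in osteoblasts (Tnnt3, 1.19 ± 0.30 SE, adjusted p = 0.0478). The mean of the 13 measured lay at 5.50 to 5.80 in tumor-free and 5.65 to 5.99 in tumor-bearing osteoblasts. The list was mixed: Tnni2, Tnnt3, Acta1, Ckm and Tnnc2 lay above the median on 12 of 12 arrays and Mb on 11. Actn3 and Mylpf did so on 4, and Ttn, Neb and the heavy chains Myh1, Myh2 and Myh4 on 0. Tnni2 stood at 10.55, 7.655 and 6.714 in tumor-free and 9.36, 10.21 and 10.06 in tumor-bearing osteoblasts.

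Cartilage, immediate early and blood cell genes also moved across these arrays, and whether they bear on the contractile genes was not tested. As above, 4.01% of all genes were called higher and 0.571% lower in osteoblasts, and 0.0241% were called in endothelial cells. Of 6 chondrocyte markers 1 rose in osteoblasts (Col2a1, 1.92 ± 0.37 SE, adjusted p = 0.0194), and their mean was 9.43, 7.95 and 6.26 in tumor-free replicates 1, 2 and 3 and 9.10 to 10.2 in tumor-bearing osteoblasts. Of 8 immediate early genes, which respond to handling and stress of cells, 2 rose in osteoblasts (Nr4a1 and Fosb, adjusted p = 0.00942 and 0.0415). The immediate early mean was 8.96, 8.45 and 7.68 in tumor-free and 9.40 to 9.54 in tumor-bearing osteoblasts. In tumor-free endothelial cells it was 9.42, 8.47 and 8.37, so replicate 1, the array highest for all 10 contractile genes, lay within the 9.38 to 9.44 of tumor-bearing mice. Of 6 tested blood cell markers 0 passed by limma in osteoblasts, and the mean of 8 was 5.60, 7.75 and 7.48 in tumor-free and 6.61, 6.64 and 5.22 in tumor-bearing arrays. Of 4 platelet markers 0 passed, and their mean was highest, at 8.28, in tumor-bearing osteoblast replicate 3. Of 5 tested fibroblast and 4 reticular stroma markers 0 passed by limma in either cell type. The fibroblast mean lay at 7.63 to 8.36 in tumor-free and 8.10 to 8.75 in tumor-bearing osteoblasts, and the reticular stroma mean at 8.46 to 9.70 and 9.08 to 10.6. In endothelial cells the reticular stroma mean was 8.95, 8.06 and 7.66 in tumor-free and 9.11, 9.21 and 9.14 in tumor-bearing mice. These groups did not overlap, and 4 of 4 differences were positive with a median of 0.92. Tumor-free endothelial replicate 1 was the highest of its group, as it was for the contractile genes and for most other lists read. It was highest for the endothelial markers (10.28, 10.09 and 10.15) and the pericyte markers (7.99, 7.77 and 7.77), for example. The osteoblast, chondrocyte, blood cell and platelet marker means were not highest on that array. The osteoblast marker mean on endothelial arrays also did not overlap, at 5.68 to 6.00 in tumor-free and 6.09 to 6.27 in tumor-bearing mice, and 0 of its 5 genes passed by limma.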

How the data were processed

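Per the labels' protocols, RNA was purified (Pico Pure), amplified by SPIA and biotinylated. The authors deposited 1 table of log2 expression levels, 34760 probe sets by 12 arrays, and the submitters' processing notes name affy. Its version, background correction and normalization were not given in the sources used here. The number of arrays limits precision, and p-values measure only the spread between these samples.

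Genes were named by the array's annotation table where a probe set had 1 symbol, with the probe set of highest mean per gene. Genes above the array median on at least 3 of 12 arrays were tested (12430, 62.3%). Deposited log2 values were fitted with limma 3.58.1 (R 4.3.3), 1 mean per group over 12 arrays, two-sided, Benjamini-Hochberg over all genes tested, threshold 0.05. A fold is 2 raised to the log2 difference. The steps were run on simulated data with independent noise and, for each gene, the same spread in all groups. The check asked only whether planted log2 changes came back at about their size. It does not cover the wider spread of tumor-free osteoblasts or genes that vary together.

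The 10 genes and the lists were chosen with earlier results of these data known. Named from each list were up to 4 genes past the threshold, or else the 2 with the smallest p. Beyond this rule, Srf, Myocd and single markers were named after their values were seen. Alternatives covered the filter, normalization, probe sets, replicate block, eBayes settings, array weights, samples fitted and single arrays left out.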

Additional observations from a re-analysis of the deposited data

How the results depend on the processing

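Over 1021 recomputed differences, 936 kept their direction and side of the threshold, 30 lost it, 26 gained it and 29 changed sign, of which 0 passed the threshold after the change. Most of these differences were not called in the main fit and had no call to lose, so the totals do not measure how stable the calls were. Of the 12 fits that left out 1 array, the osteoblast calls held in 11 for Acta2, 9 for Tagln and 4 for Cnn1. Between cell types, Tpm1 held in 3 in tumor-free mice and Cnn1 in 11 in tumor-bearing mice. In osteoblasts the count of contractile genes called was 3, but 0 with only the osteoblast arrays fitted, 2 (Acta2 and Myl9) with tumor-free replicates 2 and 3 left out, and 0 to 4 when 1 array was left out. It was 4, Myh11 added, with the 70th percentile filter, array quality weights or tumor-free replicate 1 left out. In endothelial cells the count was 0, but 3 with array quality weights and 1 with tumor-free replicate 1 of both cell types left out. Between cell types in tumor-free mice it was 1, but 2 with quantile normalization, 0 with arrays centred on their medians, 2 with tumor-free replicate 1 left out, 0 with only the groups compared fitted, and 0 to 3 when 1 array was left out. In tumor-bearing mice it was 1, but 2 with array quality weights and 0 to 2 when 1 array was left out.

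The replicate number as a block gave 3 calls (Acta2, Tagln and Tpm2) between the cell types of tumor-free mice, against 1 without it (Tpm1, whose adjusted p was 0.0746 with the block). In osteoblasts the block gave 4 calls against 3, Myh11 added (adjusted p = 0.0265). Same-numbered arrays did not deviate together (r from -0.26 to 0.108 over 18 pairs, 1 above 0.1; 5 of 12 arrays correlated best with their own number), so the numbers are not used as pairs.

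With tumor-free replicates 2 and 3 left out, signs changed for Tpm1 in osteoblasts (0.84), for Cnn1 (-0.62), Des (-0.24) and Myl9 (-0.39) in endothelial cells, for Tpm1 (0.79) and Tpm2 (0.15) in the difference of differences, and for Cnn1 (-0.24), Des (-0.62) and Tpm1 (-0.054) between cell types in tumor-free mice. With tumor-free replicate 1 left out Myl9 between cell types was 0.28. Des in tumor-free mice was -0.15 with quantile normalization and -0.13 with centred arrays, and Myh11 in tumor-bearing mice was 0.067 with quantile normalization and 0.10 with array weights. When 1 array was left out, sign changed within these ranges: in osteoblasts Cald1 -0.045 to 0.54 and Tpm1 -0.59 to 0.18; in endothelial cells Cnn1 -0.10 to 0.60 and Des -0.065 to 0.44; in the difference of differences Des -0.050 to 0.66; between cell types in tumor-free mice Des -0.25 to 0.25; and in tumor-bearing mice Cald1 -0.38 to 0.21, Des -0.027 to 0.69 and Myh11 -0.32 to 0.45. The cause of these changes was not tested. Precision is limited by 3 arrays a group, by the wide spread of tumor-free osteoblasts, and for Actg2, Des and endothelial Cnn1 by levels near or under the array median; signal over background was not used here.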
